A study of Mus musculus with 4 samples.

Results

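The 4 Dlx genes that the embryonic forebrain uses, Dlx1, Dlx2, Dlx5 and Dlx6, and Dlx6os1, the long noncoding RNA antisense to Dlx6, were followed from progenitors to young neurons in single-cell counts of the E12.5 mouse forebrain. Members were chosen by gene symbol, and they are 5 of the 43346 features counted. A further feature with the symbol Dlx6os1, a 146-base RNA (ENSMUSG00000098326.1) that partly overlaps that gene, held 309, 347 and 216 UMIs in the kept cells of the LGE, MGE and CGE and was left out. The study profiled wild-type (C57BL/6) embryos at E12.5, with 1 droplet (10x Genomics) library each for the cortex (CTX) and for the ganglionic eminences, divided into a medial (MGE), a lateral (LGE) and a caudal (CGE) part. Tissue was pooled over embryos, so a library holds several animals that cannot be told apart, and each region is represented here by 1 library; libraries from Nes-dVenus reporter embryos are not analysed here. The labels describe sorted live cells whereas the methods describe wild-type cells as not sorted, so shares of cells may carry a sorting step. Both the version 2 and the version 3 reagent kit are named, without saying which library had which.

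Dlx genes code for homeodomain transcription factors that bind DNA at short AT-rich sites. In the subpallium they are switched on as progenitors of the ventricular and subventricular zone commit to the GABAergic fate, and mice that lack Dlx1 and Dlx2 fail to form most forebrain interneurons. The genes lie in convergently transcribed pairs with enhancers between the partners. The antisense RNA Dlx6os1, also known as Evf2, overlaps such an enhancer and is a known regulator of its neighbours.

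The genes are close relatives, which matters for counting their reads. In GRCm38, Dlx1 (ENSMUSG00000041911.3, chr2:71528113-71533981, plus strand) and Dlx2 (ENSMUSG00000023391.8, chr2:71543408-71546754, minus strand) are separated by 9426 bases. Dlx6 (ENSMUSG00000029754.9, chr6:6863334-6868568, plus strand) and Dlx5 (ENSMUSG00000029755.9, chr6:6877805-6882085, minus strand) are separated by 9236 bases, and Dlx6os1 (ENSMUSG00000090063.4, chr6:6820189-6871592, minus strand) runs across all of Dlx6. The most conserved 60 coding bases of the 4 proteins are shown to let their likeness be seen; they cross from exon 2 into exon 3 and code for the homeodomain helix that contacts DNA. Capitals mark the 41 of 60 positions where the 4 genes are identical.
Dlx1: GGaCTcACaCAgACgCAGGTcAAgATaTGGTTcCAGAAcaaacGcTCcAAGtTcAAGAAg
Dlx2: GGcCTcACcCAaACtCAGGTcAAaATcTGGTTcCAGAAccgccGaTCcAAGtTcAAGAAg
Dlx5: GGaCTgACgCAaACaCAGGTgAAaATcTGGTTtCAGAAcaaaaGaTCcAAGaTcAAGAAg
Dlx6: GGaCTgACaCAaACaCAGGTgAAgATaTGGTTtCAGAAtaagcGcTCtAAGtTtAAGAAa
These windows start at coding base 496 of Dlx1, 577 of Dlx2, 523 of Dlx5 and 625 of Dlx6 and lie at chr2:71531139-71532305, chr2:71544883-71545401, chr6:6878447-6879543 and chr6:6865254-6867082, introns included. Pairs of genes were identical at 44 to 50 of the 60 bases. Over whole annotated transcripts the 5 members shared no 31-base word on the same strand, and Dlx6 and Dlx6os1 shared none on either strand because their exons do not overlap. Dlx1 shared 308 such words with its antisense gene Dlx1as on the opposite strand, and whether the counting used strand is not given in the sources used here. Dlx1as was small beside it, with 550, 1464 and 919 UMIs in LGE, MGE and CGE against 19864, 28904 and 12652 for Dlx1.

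Promoters from RefSeq (GRCm38.p6, 250 bases before and 50 after a start site) were given for 3 of the 5 members. They are shown because Dlx1 and Dlx2 were highest at the same stages of these cells and Dlx6os1 at a later stage. Capitals mark TAATTA, the core of a homeodomain site, and CAGCTG, an E-box; both read the same on either strand. The windows lie at chr2:71529195-71529494 (plus), chr2:71546705-71547004 (minus) and chr6:6869484-6869783 (minus).
Dlx1: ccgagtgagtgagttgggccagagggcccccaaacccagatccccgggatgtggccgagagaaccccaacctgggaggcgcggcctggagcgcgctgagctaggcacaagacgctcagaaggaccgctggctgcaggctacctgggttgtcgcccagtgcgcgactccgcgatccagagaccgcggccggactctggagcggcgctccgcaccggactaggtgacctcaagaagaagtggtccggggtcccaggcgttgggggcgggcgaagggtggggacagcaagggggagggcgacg
Dlx2: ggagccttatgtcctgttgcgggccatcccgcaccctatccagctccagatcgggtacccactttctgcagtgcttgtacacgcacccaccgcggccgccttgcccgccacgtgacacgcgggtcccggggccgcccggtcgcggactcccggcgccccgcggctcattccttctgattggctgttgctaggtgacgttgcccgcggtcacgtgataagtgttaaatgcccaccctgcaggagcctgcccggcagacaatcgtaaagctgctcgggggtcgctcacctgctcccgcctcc
Dlx6os1: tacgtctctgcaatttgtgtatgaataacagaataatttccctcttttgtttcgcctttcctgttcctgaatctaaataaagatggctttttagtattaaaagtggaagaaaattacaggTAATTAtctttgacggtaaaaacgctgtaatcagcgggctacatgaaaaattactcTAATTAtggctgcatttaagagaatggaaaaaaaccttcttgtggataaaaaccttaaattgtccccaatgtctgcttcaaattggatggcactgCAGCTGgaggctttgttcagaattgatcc
Neither motif occurred in the Dlx1 and Dlx2 windows, of which G and C make up 69.3% and 66.3%. The Dlx6os1 window held 2 copies of TAATTA and 1 of CAGCTG and had 35.7% G and C. A second Dlx6os1 start, with a window at chr6:6861634-6861933 (minus), held 1 copy of TAATTA and none of CAGCTG. Among 32851 promoter windows of that length, 5.29% held TAATTA and 16.3% held CAGCTG.

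After filtering, 3562 CTX, 4679 LGE, 4752 MGE and 3201 CGE cells remained, with 23382561 to 37357844 UMIs per library and medians of 6940 to 8236 UMIs per cell. Pairs of libraries shared 4 to 15 cell barcodes. Cells were ordered by Nes, a progenitor intermediate filament gene, and Dcx, a microtubule gene of migrating young neurons, each called high above 1.5 on the scale ln(1 + UMIs per 10000). Stage 1 holds high-Nes cells with no Dcx UMI, stage 2 high-Nes cells with a Dcx UMI, stage 3 cells below both limits, stage 4 high-Dcx cells with a Nes UMI and stage 5 high-Dcx cells with none. This order comes from 2 genes and is not measured time. Ventricular zone markers summed to 4848 to 11027 CPM (counts scaled to the summed depth of the cells) in high-Nes cells of the eminences and to 482 to 688 CPM in high-Dcx cells, Nes included. GABAergic markers (Gad1, Gad2, Slc32a1) summed to 872 to 944 CPM in high-Dcx cells of the eminences, whereas CTX high-Dcx cells held 44.3 CPM of them and 2919 CPM of glutamatergic markers. The high-Nes cells of CGE also held 165 CPM of microglial markers, against 59.2 CPM in MGE and 1.2 CPM in LGE, and removing cells with markers of blood vessels, mesenchyme or microglia left the number of members called in every comparison as it was.

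Dlx1 was already abundant in progenitors. Its level in stages 1 to 5 was 347, 771, 644, 682 and 392 CPM in LGE. In MGE it was 334, 774, 1028, 782 and 543 CPM, and in CGE it was 239, 325, 659, 594 and 507 CPM. The level was highest at stage 2 in LGE and at stage 3 in MGE and CGE, and in all 3 eminences stage 5 lay below the highest stage.

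Dlx2, its neighbour on chromosome 2, was highest at the same stages. It stood at 402, 768, 677, 688 and 399 CPM in stages 1 to 5 of LGE, with the highest value again at stage 2. It stood at 352, 664, 873, 730 and 711 CPM in MGE and at 267, 322, 590, 565 and 441 CPM in CGE, both highest at stage 3. In stage 1 it lay below every later stage in MGE and CGE, and in LGE it was close to stage 5. Stages 1 and 2 of CGE were not separable by counting error. In MGE stage 5 it held 0.974 of its stage 4 level (95% interval 0.929 to 1.02), while Dlx1 held 0.695 (0.663 to 0.729).

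Dlx5 was low in stage 1 and rose with Dcx. Its level was 33.1, 243, 237, 444 and 395 CPM in stages 1 to 5 of LGE and 21.8, 131, 319, 475 and 526 CPM in MGE. In CGE it was 13.9, 60.1, 223, 422 and 363 CPM. Its highest stage was 4 in LGE and CGE and 5 in MGE.

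Dlx6, the partner of Dlx5, rested on the fewest UMIs. It was 9.90, 48.4, 77.8, 80.1 and 106 CPM in stages 1 to 5 of LGE and 11.4, 23.8, 109, 132 and 146 CPM in MGE. In CGE it was 4.09, 14.1, 59.4, 89.1 and 79.6 CPM. Stage 1 was the lowest stage in every eminence, but in CGE it was not separable from stage 2 by counting error.

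Dlx6os1 was low in stage 1 as well and higher in every later stage. It was 40.3, 490, 324, 746 and 528 CPM in stages 1 to 5 of LGE, a course with a dip at stage 3. It was 32.4, 254, 576, 939 and 1026 CPM in MGE and 9.81, 131, 306, 771 and 672 CPM in CGE. Stage 1 was again the lowest stage in all 3.

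**Figure D1:**
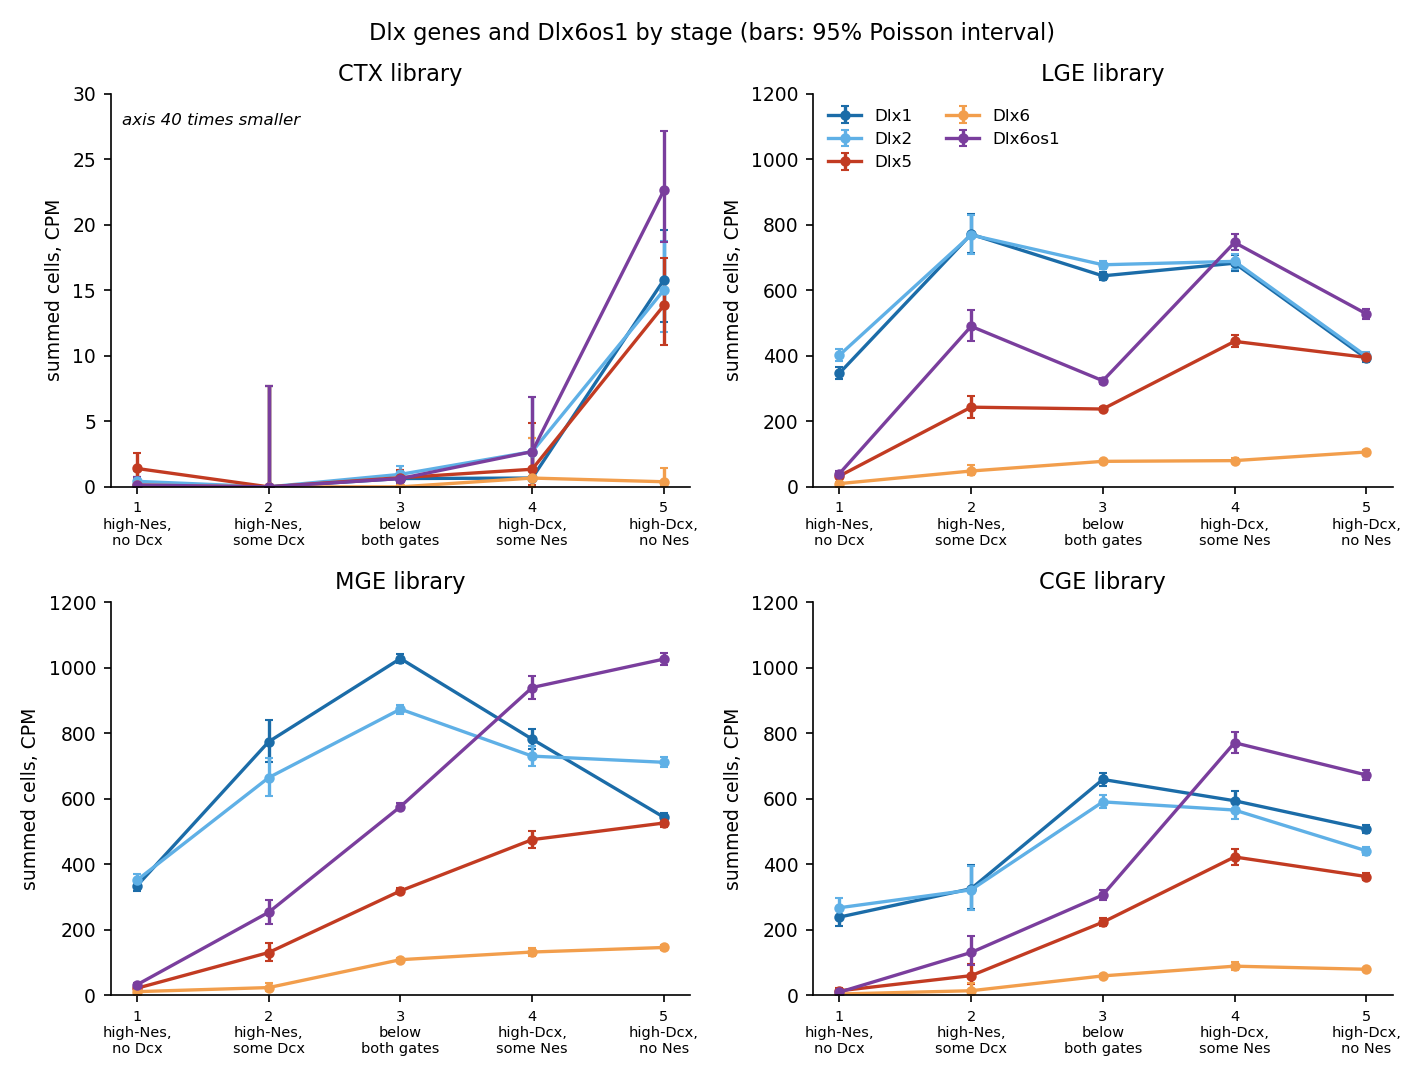
Level of each member (y axis, CPM of summed cells) in stages 1 to 5 (x axis) in each library, with exact 95% Poisson intervals as bars; the CTX axis is 40 times smaller. In stage 1 of the 3 eminences Dlx1 and Dlx2 (blue) are at 239 to 402 CPM and Dlx5, Dlx6 and Dlx6os1 at 4.09 to 40.3 CPM, and in CTX the highest value is 22.6 CPM.

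Whether each member rose from high-Nes to high-Dcx cells was tested on summed counts, with library as a block. The edgeR quasi-likelihood test covered 13015 genes, and an adjusted p below 0.05 was called. High-Dcx cells are not all young neurons, as they include cycling cells. All 5 members rose, beside 27.9% of all genes tested that were higher in high-Dcx cells and 27.3% that were lower. Dlx1 went from 419, 401 and 255 CPM in high-Nes cells of LGE, MGE and CGE (358 ± 89.9, SD, n = 3) to 491, 593 and 522 CPM in high-Dcx cells (535 ± 52.3). The values did not overlap, and the log2 fold change was 0.69 (SE 0.154, edgeR adjusted p = 0.0113). Dlx2 went from 464, 399 and 278 CPM to 497, 715 and 462 CPM, a log2 fold change of 0.65 (SE 0.147, edgeR adjusted p = 0.0120). Its LGE high-Nes level was close to its CGE high-Dcx level.

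The chromosome 6 members each rose by more than 3 on the log2 scale. Dlx5 went from 68.7, 38.3 and 22.6 CPM to 412, 515 and 373 CPM, a log2 fold change of 3.46 (SE 0.280, edgeR adjusted p = 0.000379). Dlx6 went from 16.4, 13.2 and 5.98 CPM to 97.4, 143 and 81.2 CPM (log2 fold change 3.21, SE 0.218, adjusted p = 0.000237). Dlx6os1 went from 117, 66.0 and 32.5 CPM to 602, 1008 and 689 CPM (log2 fold change 3.57, SE 0.386, adjusted p = 0.000906). For none of the 3 did the high-Nes and high-Dcx values overlap, as for Dlx1, but the share of all genes that separate in this way was not counted. The calls of Dlx1 and Dlx2 were lost with a limit of 1.0 in place of 1.5 on the ln scale (log2 fold change 0.28 for Dlx1, adjusted p = 0.175, and 0.27 for Dlx2, adjusted p = 0.132) and with CTX added (adjusted p = 0.138 for Dlx1 and 0.125 for Dlx2). The Dlx2 call was also lost without the MGE library (adjusted p = 0.0507) and without the library block (0.0663).

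Because genes may differ in how well they are captured, the order of onset was read from each gene's own course. The measure was the level in high-Nes cells in percent of the level in high-Dcx cells. In the order LGE, MGE and CGE, Dlx1 had reached 85.3%, 67.7% and 48.9%, and Dlx2 93.4%, 55.8% and 60.1%. Dlx5 had reached 16.7%, 7.44% and 6.06%, Dlx6 16.9%, 9.25% and 7.36%, and Dlx6os1 19.4%, 6.55% and 4.72%. The levels of Dlx1 and Dlx2 in high-Dcx cells lay below their highest stage, so their percentages mix onset with a later fall. For example, Dlx2 in LGE stood at 464 CPM in high-Nes cells, 497 CPM in high-Dcx cells and 768 CPM at stage 2. Set against the highest stage the percentages would be lower, and they were not computed that way. In each eminence both chromosome 2 genes lay above all 3 chromosome 6 genes. The mean of the first group less the mean of the second was 71.7, 54.0 and 48.4 percentage points (58.0 ± 12.1, SD, n = 3), positive in 3 of 3 libraries. The exact sign-flip permutation test gave a two-sided p = 0.25, the smallest that 3 libraries allow.

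**Figure D2:**
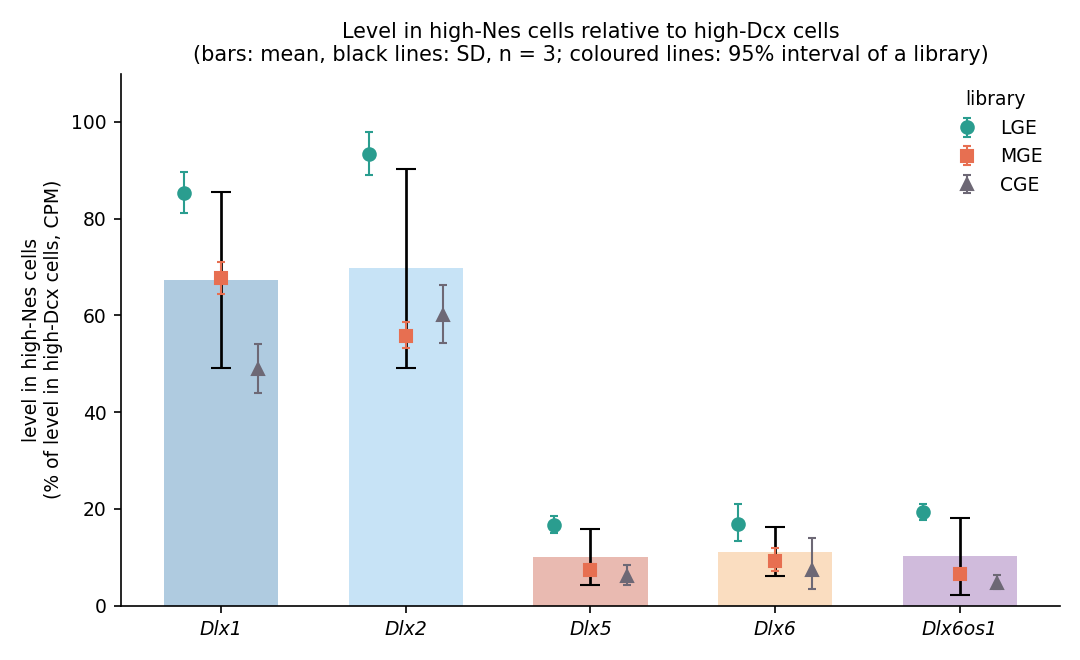
Level in high-Nes cells as a percentage of the level in high-Dcx cells (y axis) for each member (x axis); bars are means over 3 eminences with SD, and points are single libraries with 95% intervals for counting error. Dlx1 and Dlx2 average 67.3% and 69.7%, and Dlx5, Dlx6 and Dlx6os1 10.1%, 11.2% and 10.2%.

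Within each group of genes the order differed between libraries. Dlx1 had the higher percentage of the pair in MGE and Dlx2 in LGE and CGE, and the 95% intervals of both genes in LGE overlapped at 81.2 to 89.6% and 89.0 to 97.9%. Among Dlx5, Dlx6 and Dlx6os1 every pair of intervals overlapped in each eminence, the widest being 3.36 to 14.0% for Dlx6 in CGE. All 5 percentages were highest in LGE.

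Free RNA can give UMIs in droplets whose cell does not express a gene, so shares were compared with those in barcodes led by globin RNA. These red cell barcodes, which should lack Dlx transcripts, held a Dlx5 UMI in 8.20% of 61 LGE, 12.1% of 58 MGE and 9.52% of 21 CGE barcodes. Stage 1 cells, counted at their own depth, held one in 11%, 12.6% and 10.4% of cells, respectively. The same comparison gave 3.28%, 5.17% and 9.52% of red cell barcodes against 5.81%, 5.98% and 2.96% of stage 1 cells for Dlx6, and 11.5%, 13.8% and 4.76% against 11.6%, 14.0% and 7.41% for Dlx6os1. The stage 1 shares of the chromosome 6 members lay within exact Clopper-Pearson intervals of the background, such as 2.72 to 18.1% for Dlx5 in LGE. With 21 to 61 red cell barcodes per library the intervals are wide, for example 0.12 to 23.8% for Dlx6os1 in CGE. A modest excess over the background in stage 1 could therefore not be seen. These intervals, like the Poisson intervals, cover counting error only. The red cell barcodes had median depths of 10080 to 13949 UMIs, mostly globin, against medians of 8428 to 9902 UMIs in high-Nes cells.

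Dlx1 and Dlx2 stood well above that floor in the same cells. Dlx1 was found in 63.9%, 57.7% and 56.3% of stage 1 cells of LGE, MGE and CGE against 14.8%, 13.8% and 23.8% of red cell barcodes. Dlx2 was found in 75.7%, 71.5% and 70.4% against 8.20%, 17.2% and 19.0%. With the UMIs per red cell barcode subtracted from every cell, an alternative chosen after seeing the data, the onset difference was 63.8 percentage points. The percentages then became 11.5%, 1.72% and 3.40% for Dlx5, 1.41%, 3.34% and -6.51% for Dlx6 and 17.6%, -2.82% and 3.28% for Dlx6os1. The negative value of Dlx6 in CGE rests on 2 UMIs in 21 red cell barcodes. That of Dlx6os1 in MGE rests on 51 UMIs held by only 8 of 58 red cell barcodes. UMIs so concentrated are not an even background, so the subtraction may remove too much. The reason for the concentration was not tested.

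The course was then tested in 4 steps between the 5 stages (edgeR, library as a block, 12558 genes). From stage 1 to stage 2, that is from progenitors with no Dcx UMI to progenitors with one, 4 of 5 members rose, beside 1.27% of all genes called higher and 0.199% called lower. Dlx6os1 rose by 3.38 on the log2 scale (SE 0.400, edgeR adjusted p = 0.000638), to 12.1, 7.82 and 13.3 times its stage 1 level in LGE, MGE and CGE. Dlx5 rose by 2.71 (SE 0.313, adjusted p = 0.000558), Dlx6 by 1.81 (SE 0.358, adjusted p = 0.0209) and Dlx1 by 1.05 (SE 0.209, adjusted p = 0.0225). Dlx2 had a log2 fold change of 0.80 (SE 0.194, adjusted p = 0.0596) and was not called by edgeR, while DESeq2 called it. By level, all 5 members were higher in stage 2 in 3 of 3 eminences, and the share of all genes that were so is not given here. In CGE the counting interval of the stage 2 over stage 1 ratio covered 1 for 2 members. These were Dlx2 (1.20, interval 0.943 to 1.52) and Dlx6 (3.46, interval 0.687 to 16.1, from 4 UMIs in stage 2 and 5 in stage 1). The calls of Dlx5 and Dlx6os1 did not depend on any library, while Dlx1 lost its call without LGE (adjusted p = 0.131) or MGE (0.199) and Dlx6 without LGE (0.390) or CGE (0.0808).

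The shares of cells moved with these levels. At own depth, Dlx5 was found in 62.4% of 101 stage 2 cells in LGE and 44.3% of 79 in MGE, above its share in red cell barcodes, but in 13.8% of 29 in CGE, where the interval of 3.89 to 31.7% covers the background share. Dlx6os1 was found in 64.4%, 40.5% and 27.6% of stage 2 cells. The CGE value has the widest interval, 12.7 to 47.2%, since few CGE cells fell in stage 2.

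The 3 later steps came from the same fit. From stage 2 to stage 3, Dlx6 alone was called (log2 fold change 1.39, SE 0.264, edgeR adjusted p = 0.0211), beside 1.13% of all genes called higher and 0.414% called lower, and the call was lost without MGE (adjusted p = 0.246) or CGE (0.170), while without LGE 3 members were called. From stage 3 to stage 4, where 13.0% of genes were called higher and 13.3% lower, Dlx6os1 rose by 1.13 (SE 0.296, adjusted p = 0.0131) and Dlx5 by 0.85 (SE 0.211, adjusted p = 0.00952), while Dlx1 and Dlx2 had log2 fold changes of -0.11 and -0.04. Without the CGE library neither Dlx5 (adjusted p = 0.0903) nor Dlx6os1 (0.115) was called at that step, and without LGE Dlx6 was called too (log2 fold change 0.45, adjusted p = 0.0186). From stage 4 to stage 5 edgeR called no member, beside 5.72% of genes called higher and 7.91% called lower, and DESeq2 called none either. At that step 1 member, Dlx1, had an unadjusted edgeR p below 0.05, with a log2 fold change of -0.50 (adjusted p = 0.102), and without CGE it was called lower (-0.65, adjusted p = 0.0406).

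**Figure D3:**
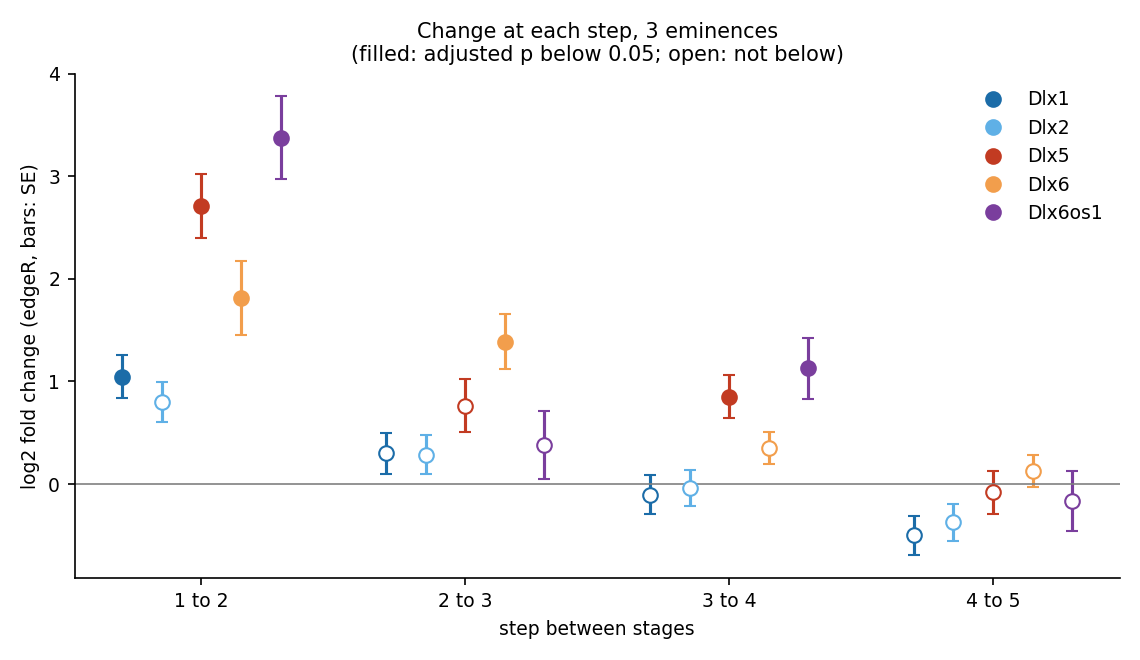
Log2 fold change with its SE (y axis) of each member at each step between stages (x axis), from the edgeR fit over 3 eminences; filled points have an adjusted p below 0.05. The 4 filled points at the first step lie between 1.05 and 3.38, and no point is filled at the last step.

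Co-detection in single cells was read after thinning each cell to 3000 UMIs. In high-Nes cells Dlx1 was found in 48.5%, 43.6% and 39.5% of LGE, MGE and CGE cells and Dlx2 in 58.8%, 54.2% and 48.8%. Dlx5 was found in 14.2%, 9.0% and 5.56%, Dlx6 in 4.60%, 2.15% and 1.85%, and Dlx6os1 in 14.3%, 11.2% and 5.56%. In high-Dcx cells Dlx6os1 reached 69.5%, 87.4% and 70.9% and Dlx5 65.9%, 74.8% and 61.1%. Dlx1 was found in 56.5%, 70.7% and 63.3% of these cells, Dlx2 in 55.3%, 82.3% and 64.5%, and Dlx6 in 23.5%, 31.8% and 20.3%.

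Cells were then classed by whether they held a UMI of Dlx1 or Dlx2, of Dlx5, Dlx6 or Dlx6os1, of both groups or of neither. The share with both groups went from 9.25% in stage 1 to 61.0% in stage 2, 47.9% in stage 3, 78.9% in stage 4 and 61.2% in stage 5 of LGE. In MGE it was 9.03%, 40.5%, 75.1%, 93.4% and 89.4%, and in CGE 3.76%, 20.7%, 50.1%, 80.2% and 71.6%. The share rose at each of the first 3 steps in MGE and CGE, and in all 3 eminences it was highest in stage 4. Exact Clopper-Pearson 95% intervals at stage 2 ran from 50.7 to 70.6% in LGE, 29.6 to 52.1% in MGE and 7.99 to 39.7% in CGE.

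The classes were unequal. Among high-Nes cells, 50.3%, 51.3% and 52.5% held Dlx1 or Dlx2 alone, against 1.95%, 1.37% and 3.09% that held a chromosome 6 member alone. Of the high-Nes cells with a chromosome 6 member, 90.4% in LGE, 91.0% in MGE and 68.8% in CGE (11 of 16 cells) also held Dlx1 or Dlx2, beside 68.7%, 65.2% and 59.3% of all high-Nes cells. Where a high-Nes cell held 1 member only, that member was Dlx2 in 108 of 168 LGE cells, 100 of 156 MGE cells and 31 of 50 CGE cells, and Dlx1 in most of the others. In high-Dcx cells both groups were found together in 66.4%, 90.1% and 72.8%, and a chromosome 6 member alone in 24.0%, 7.04% and 13.9%. All 5 members were found in 4.38%, 12.9% and 6.60% of high-Dcx cells.

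**Figure D4:**
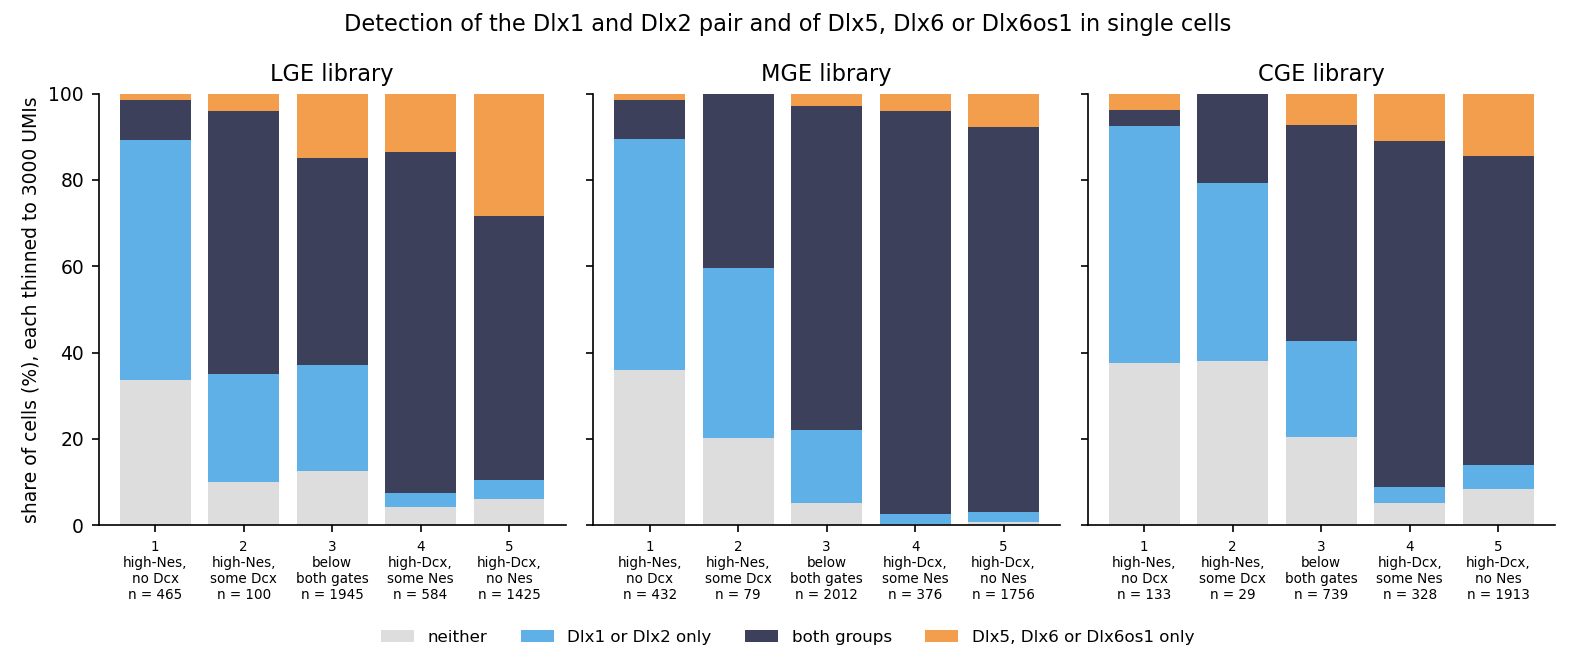
Share of cells (y axis, percent) in 4 detection classes at each stage (x axis) in the 3 eminence libraries, each cell thinned to 3000 UMIs; n is the number of cells. The light blue class with Dlx1 or Dlx2 only is the largest in stage 1. The dark class with both groups is the largest from stage 2 on in LGE and MGE and from stage 3 on in CGE. In MGE at stage 2 the dark class holds 40.5% and the light blue class 39.2%. The orange class without Dlx1 or Dlx2 is widest in LGE at stage 5.

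Co-detection was set beside the product of the separate shares. In high-Nes cells both groups were together in 18.4%, 13.9% and 6.79% of LGE, MGE and CGE cells, against products of 14.0%, 9.95% and 5.85%, but at own depth the CGE share of 13.4% lay below its product of 14.6%. Of single pairs, Dlx5 and Dlx6os1 were together in 8.85%, 5.68% and 1.85% of these cells, 4.36, 5.65 and 6.0 times the product of their shares, although the last ratio rests on 3 cells. For Dlx1 and Dlx2 the ratio was 1.35, 1.38 and 1.51. In high-Dcx cells the Dlx5 and Dlx6os1 ratio was 1.07, 1.02 and 1.09. In LGE high-Dcx cells Dlx6 was found with Dlx2 at 0.765 and with Dlx1 at 0.827 times the product of the shares. These ratios describe cells of 1 library each, mix stages within a class and carry no test.

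Among cells with high Dcx, cycling cells (above 0.5 on the ln scale for the cycle genes Mki67 and Ccnd2, below it for the neuronal genes Mapt and Rbfox3, and with no limit on Nes) were set against postmitotic cells (Nes, Hes5, Mki67, Ccnd1 and Ccnd2 below 0.5). Dlx1 went from 837, 939 and 760 CPM in cycling cells of LGE, MGE and CGE to 184, 393 and 463 CPM in postmitotic cells. The groups did not overlap, but the share of all genes that separate in this way was not counted. Dlx1 was lower in postmitotic cells by a log2 fold change of -1.47 (SE 0.225, edgeR adjusted p = 0.000723, 11009 genes). Dlx2 went from 892, 741 and 676 CPM to 224, 689 and 394 CPM, with a log2 fold change of -1.03 (SE 0.285, edgeR adjusted p = 0.0157), and its groups overlapped because the MGE library kept 0.930 of its level. High-Nes cells of LGE, MGE and CGE held 419, 401 and 255 CPM of Dlx1 and 464, 399 and 278 CPM of Dlx2. Postmitotic levels of both genes were below these in LGE and above them in CGE, which was not tested. In MGE the levels were close for Dlx1, and Dlx2 was higher in postmitotic cells. Dlx1 and Dlx2 were the 2 of 5 members called between cycling and postmitotic cells, beside 22.4% of all genes called lower and 23.6% called higher. The Dlx2 call was lost without the CGE library (adjusted p = 0.0747), with DESeq2 and without the library block (adjusted p = 0.0773).

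The chromosome 6 members were not called in that comparison. Dlx5 stood at 450, 445 and 440 CPM in cycling cells and 365, 509 and 337 CPM in postmitotic cells (log2 fold change -0.24, SE 0.118, edgeR adjusted p = 0.121). Dlx6 stood at 69.2, 130 and 85.8 CPM and then at 120, 156 and 80.9 CPM (0.28, SE 0.151, adjusted p = 0.155). Dlx6os1 stood at 812, 832 and 817 CPM and then at 354, 1031 and 595 CPM (-0.53, SE 0.226, adjusted p = 0.0852). In cycling cells the levels of Dlx5 and Dlx6os1 were close in the 3 eminences, and in postmitotic cells the LGE and MGE values of Dlx6os1 lay on opposite sides of them. Without the MGE library Dlx5 (log2 fold change -0.43, adjusted p = 0.00135) and Dlx6os1 (-0.92, adjusted p = 1.74e-08) were called lower.

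**Figure D5:**
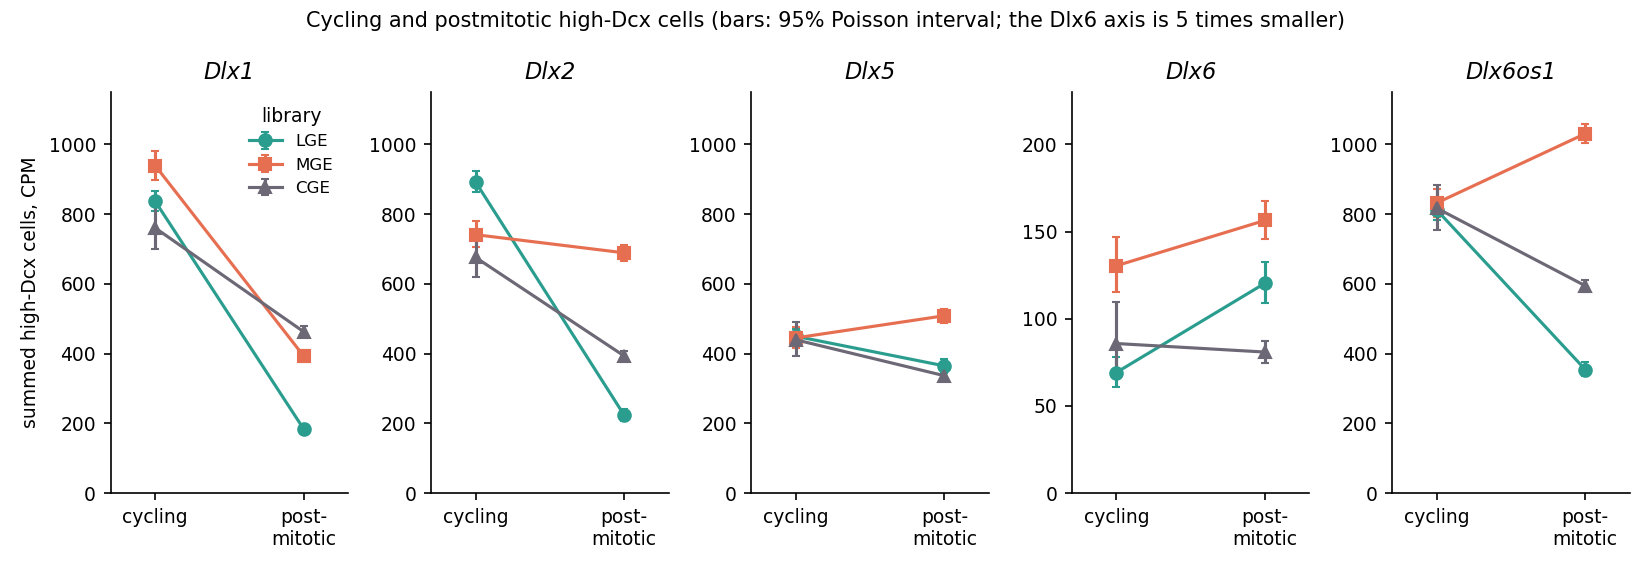
Level (y axis, CPM of summed high-Dcx cells) of each member in cycling and postmitotic cells (x axis) of the 3 eminence libraries, with exact 95% Poisson intervals; the Dlx6 axis is 5 times smaller. Dlx1 falls in all 3 libraries, and Dlx6os1 ends at 354 CPM in LGE and 1031 CPM in MGE from starting levels of 812 and 832 CPM.

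Subsets of high-Dcx cells, chosen after the data were seen, held the members in different proportions. Among LGE high-Dcx cells, 495 had a UMI of Ebf1, a factor of striatal projection neurons, and none of Sp9, a zinc finger gene that Dlx proteins activate, and 1145 had Sp9 and no Ebf1. In the Ebf1 cells Dlx1 was at 82.2 CPM, Dlx2 at 59.2 CPM and Dlx6os1 at 164 CPM, against 687, 736 and 799 CPM in the Sp9 cells. Dlx5 differed less, at 304 against 455 CPM, and Dlx6 was higher in the Ebf1 cells, at 166 (95% interval 153 to 180) against 70.6 CPM (64.9 to 76.6). The same direction was found for Dlx6 in MGE (331 CPM in 84 Ebf1 cells against 136 CPM in 1943 Sp9 cells) and in CGE (127 CPM in 153 cells against 77.7 CPM in 1591 cells). Median depths were 6627 and 6486 UMIs in the LGE subsets.

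Levels were also set side by side between regions, with no test since each region had 1 library. In high-Nes cells Dlx1 in LGE was 1.04 times the MGE level (exact 95% interval 0.981 to 1.11) and 1.64 times the CGE level (1.47 to 1.84). Dlx5 and Dlx6os1 in LGE were 1.79 and 1.77 times MGE and 3.04 and 3.58 times CGE, and the LGE over MGE ratio of Dlx6 was 1.24 with an interval of 0.886 to 1.74. High-Nes levels of all 5 members were in the order LGE, MGE, CGE, with LGE and MGE not separable by counting error for Dlx1 and Dlx6. For the chromosome 6 members that order may include a background that differed between libraries. Red cell barcodes held 0.115, 0.879 and 0.0952 UMIs of Dlx6os1 each in LGE, MGE and CGE, against 0.998, 0.640 and 0.299 UMIs per high-Nes cell. After subtraction MGE was no longer above CGE for Dlx5 and Dlx6os1 or below LGE for Dlx6. The MGE background of Dlx6os1 came from only 8 of 58 red cell barcodes, so the order after subtraction is uncertain. In high-Dcx cells MGE had the highest level of all 5 members, for example 1.46 times CGE for Dlx6os1 (1.43 to 1.50) and 1.76 times CGE for Dlx6 (1.64 to 1.89). Glutamatergic markers summed to 33.0, 0.346 and 92.1 CPM in high-Dcx cells of LGE, MGE and CGE. Whether such cells bear on the order was not tested. The high-Nes level of CGE rests on 164 cells, against 583 in LGE and 514 in MGE, and also comes with the microglial markers given above.

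The cortex held almost none of these RNAs. Over 3562 kept CTX cells there were 96 UMIs of Dlx1, 101 of Dlx2, 95 of Dlx5, 4 of Dlx6 and 133 of Dlx6os1. Most UMIs of the members other than Dlx6 came from high-Dcx cells without Nes, in which Dlx6os1 was at 22.6 CPM, Dlx1 at 15.8 CPM and Dlx5 at 13.8 CPM. In a subset chosen after the data were seen, 50 CTX high-Dcx cells had a UMI of a GABAergic marker and none of Neurod2 or Neurod6, genes of cortical glutamatergic neurons. These held Dlx1 and Dlx2 at 255 CPM each, Dlx5 at 225 CPM, Dlx6 at 11.2 CPM and Dlx6os1 at 382 CPM. The 730 CTX high-Dcx cells with Neurod2 or Neurod6 held 1.42 to 2.69 CPM of the other members and no Dlx6 UMI. No member had a UMI in 168 red cell barcodes of CTX, which allows a share of up to 1.79% when 3 counts are taken as the limit of a count of 0.

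Other genes of the pathway were taken from lists chosen with earlier results known, and their counts are given beside a median of 0.03 over all genes tested between high-Nes and high-Dcx cells. Of 8 genes that act upstream of Dlx, none was higher and 7 were lower in high-Dcx cells, beside 27.9% and 27.3% of all genes tested, with a median log2 fold change of -1.96. They include the homeobox gene Gsx2 (-2.45), the receptor Notch1 (-2.50) and its effectors Hes1 (-6.24) and Hes5 (-5.42), whereas the Notch ligand Dll3 had a log2 fold change of 0.14 and was not called. Of 12 genes known to be regulated by Dlx proteins, 10 were higher and none lower, with a median of 3.36. They include Gad1 (5.05) and Gad2 (3.90), which make GABA, the vesicular transporter Slc32a1 (4.15), and the transcription factors Lhx6 (4.46), Sp8 (3.15) and Sp9 (2.65). Six3 (0.68) and the chemokine receptor gene Cxcr4 (0.08) were not called.

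Between stages 1 and 2, where 4 of 5 members rose, 6 of the 12 regulated genes were called higher, beside 1.27% of all genes. Among them Gad1 had a log2 fold change of 4.60, Slc32a1 of 2.86, Sp9 of 2.48 and Gad2 of 2.41. Of the upstream genes Dll3 (1.19) was called higher and Hes1 (-1.14) lower at that step. From cycling to postmitotic high-Dcx cells all 5 upstream genes tested were lower, beside 22.4% of all genes. Of the 12 regulated genes 5 were then higher, beside 23.6% of all genes, among them Gad1 (0.73), Gad2 (0.75) and Slc32a1 (0.76), and Sp9 was lower (-0.67), the direction of Dlx1 and Dlx2.

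Dlx3 and Dlx4 had at most 1 UMI in the kept cells of a library. Dlx1as, antisense to Dlx1, rose from 5.81, 4.82 and 6.64 CPM in high-Nes cells to 23.5, 60.8 and 49.0 CPM in high-Dcx cells (log2 fold change 2.95, SE 0.310, edgeR adjusted p = 0.000836). Whether its fold change differs from that of Dlx1 was not tested. None of the 4 nearest protein-coding genes that flank the pairs was called higher. Metap1d, 2919 bases from Dlx1, had a log2 fold change of 0.44 and was not called, Itga6 on the side of Dlx2 was lower (-2.63), and Sem1 and Sdhaf3 (Shfm1 and Acn9 in the files) near Dlx5 and Dlx6 had -0.15 and -0.36 and were not called.

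Likeness to the members was measured by Pearson correlation of log2(CPM + 1) over the 20 sums of 5 stages and 4 libraries, as a description, since sums of a library share cells' depth and embryos. Of 5538 candidate genes Sp9 was most like the summed members (r = 0.968), and Fam222a (0.957), the GABA-degrading enzyme Abat (0.949) and Trim8 (0.941) were also among the 5 most like them. RP23-145L9.6 (ENSMUSG00000104447.1) was the candidate most like Dlx5 (0.991), Dlx6 (0.976) and Dlx6os1 (0.997). Among the members, Dlx1 and Dlx2 had r = 0.997, Dlx5 and Dlx6os1 0.993, and Dlx1 and Dlx5 0.919.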

How the data were processed

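Each of the 4 libraries was 1 region, and samples were grouped by the region in their labels. The authors deposited raw UMI counts per gene and cell barcode, whole numbers aligned to mm10 (GRCm38). The file headers name Cell Ranger 3.0.2 and the submitters' processing notes 3.0.0. The annotation release and the use of strand are not given in the sources used here, and 42462 of the 43346 features matched GENCODE M21 by gene ID.

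Cells with more than 1500 and fewer than 4500 genes, under 5% mitochondrial and under 1% Hbb UMIs were kept. Doublets were marked by likeness to simulated pairs at 0.8% per 1000 barcodes and removed (122 to 275 marked per library). UMIs were summed per stage and library, and CPM was computed from the sums. The 17 to 72 eminence cells per library above both limits were left out of the stages and of the high-Nes and high-Dcx sums. The cycling class set no limit on Nes and so could include such cells. Sums of LGE, MGE and CGE were tested with edgeR 4.0.16 (TMM, filterByExpr, glmQLFit, library as a block, Benjamini-Hochberg over all genes tested, R 4.3.3), with DESeq2 1.42.0 as an alternative. CTX was left out because its neurons are of another lineage. Scripts were tested on simulated data. Cells under 3000 UMIs were left out of thinned shares. With cells summed from 1 library per region, p-values measure the spread between the 3 eminences, not between animals. Other limits, filters, scalings and left-out libraries were tried. The members always, the listed genes at 50 CPM or more in an eminence, the flanking genes and the 5 genes most like the members are named; the few others were chosen after their values were seen. Some genes that this rule names are not reported here. The members and lists were chosen with earlier results of these data known.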

Additional observations from a re-analysis of the deposited data

Results flagged for a closer look

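In 12 cases the 3 eminence libraries did not move in the same direction at a step, and in 8 of them a library rose and another fell with 95% counting intervals that both left out a ratio of 1. These 8 are given first. Each region has 1 library, so whether its direction would recur in another sample of that region is not known. The differences between libraries were not tested. Ratios are CPM of the later over the earlier group. From stage 2 to stage 3, Dlx1 changed to 0.835 of its level in LGE but to 1.33 in MGE and 2.02 in CGE. Over the same step Dlx2 changed to 0.882 in LGE, 1.31 in MGE and 1.83 in CGE. Dlx6os1 changed to 0.661 in LGE, 2.27 in MGE and 2.34 in CGE there. Stage 2 held 101 LGE, 79 MGE and 29 CGE cells.

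From stage 3 to stage 4, Dlx1 changed to 1.06 in LGE, 0.761 in MGE and 0.901 in CGE. From stage 4 to stage 5, Dlx5 changed to 1.11 in MGE, 0.890 in LGE and 0.859 in CGE, and Dlx6os1 to 1.09 in MGE, 0.708 in LGE and 0.872 in CGE. From cycling to postmitotic high-Dcx cells, Dlx5 changed to 1.14 in MGE, 0.811 in LGE and 0.766 in CGE. Dlx6os1 changed to 1.24 in MGE, 0.437 in LGE and 0.728 in CGE over that comparison. In the last 4 of these cases MGE was the library that went up.

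In the other 4 cases an interval on 1 side covered a ratio of 1. From stage 2 to stage 3, Dlx5 changed to 0.977 in LGE, 2.44 in MGE and 3.71 in CGE. From stage 3 to stage 4, Dlx2 changed to 1.02 in LGE, 0.836 in MGE and 0.958 in CGE. Dlx6 changed to 1.33 in LGE, 1.10 in MGE and 0.893 in CGE from stage 4 to stage 5, and to 1.74, 1.20 and 0.943 from cycling to postmitotic cells.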

How the results depend on the processing

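Of 118 values that answer a comparison, 91 stayed close to the reported value and 27 moved, and of 685 values of single members 514 kept direction and call, 31 lost a call, 23 gained one, 101 moved and 16 reversed. The causes were not tested. Members called between high-Nes and high-Dcx cells (5) were 3 with CTX added and 3 with a limit of 1.0, and 4 to 5 with a library left out. Between cycling and postmitotic cells (2), 1 was called by DESeq2 and 1 without the library block, and 1 to 4 with a library left out. At the first step (4), 2 were called without the block, 2 with a limit of 1.0 and 2 with 2.0, and 2 to 3 with a library left out. At the second step (1), 4 were called with no filter on low counts and 4 with a limit of 2.0, and 0 without the block, with a limit of 1.0 or with thinned cells, and 0 to 3 with a library left out. At the third step (2), 0 were called without the block and 1 with CTX added, and 0 to 3 with a library left out. At the last step (0), 2 were called with no filter, and 0 to 1 with a library left out. The onset difference was 72.7 percentage points with a limit of 1.0 and 51.2 to 62.8 with a library left out. The share of high-Dcx cells with both groups, 76.4% over 3 libraries, was 59.3% when 2 UMIs of each were needed and 61.6% without Dlx6os1, the latter chosen after seeing the data; in high-Nes cells 13.0% became 21.4% at own depth. The summed level of the 5 members in high-Dcx cells did not move.

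Log2 fold changes that turned direction were all small and uncalled. At the second step these were, with thinned cells, Dlx2 (-0.12) and Dlx6os1 (-0.0039). At the third step they were Dlx1 with CTX added (0.0435) or no upper gene limit (0.0041), and Dlx2 with CTX added (0.1096), thinned cells (0.0605) or no upper limit (0.0612). With a library left out, Dlx1 ranged there from -0.2421 to 0.0174 and Dlx2 from -0.1257 to 0.0338. At the last step they were Dlx2 (0.0377), Dlx5 (0.1869) and Dlx6os1 (0.2403) with CTX added and Dlx6 with thinned cells (-0.2025). With a library left out, Dlx5 ranged from -0.2175 to 0.0063 and Dlx6 from -0.0091 to 0.2765. The mean percentage of Dlx6 reached in high-Nes cells was -0.586% after subtraction of red cell barcode UMIs.

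Counts over all genes moved as well. From stage 1 to 2 edgeR called 160 genes higher, DESeq2 361, the fit with no filter 387 and the fit without the block 39. From stage 2 to 3 the counts were 142, 217, 548 and 3, from stage 3 to 4 they were 1629, 1576, 1648 and 217, and from stage 4 to 5 they were 718, 704, 1138 and 6. From cycling to postmitotic cells edgeR called 2599 higher and DESeq2 1671. The stages of a library were paired by the library block of the edgeR fits. Depth limits Dlx6 most, which had 1655 to 4096 UMIs per eminence.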
